A study of Mus musculus with 4 samples.

Results

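The Gimap genes encode the GTPases of immunity-associated proteins, small GTP-binding proteins found mainly in lymphocytes. The 8 members described here, Gimap1, Gimap3, Gimap4, Gimap5, Gimap6, Gimap7, Gimap8 and Gimap9, are the Gimap genes of the cluster on mouse chromosome 6, and they were 8 of the 53715 gene IDs in the deposited count table. The rule that defines them goes by name and position and uses no measured value. All 8 passed the filter on low counts.

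Their RNA was measured in thymic iNKT cells (invariant natural killer T cells), a T lineage whose nearly uniform receptor binds lipids held by CD1d. Viable thymocytes positive for both TCRβ and a CD1d tetramer were sorted from C57BL/6 mice aged 6 to 8 weeks, and libraries were prepared by Smart-seq2, which copies whole transcripts into cDNA without keeping the strand. The Mettl3fl/fl CD4-cre group, called Mettl3 knockout below, had 2 libraries and carried a floxed Mettl3 allele and a Cre recombinase driven by CD4 regulatory sequence, which is active from the CD4+CD8+ thymocyte stage onwards. The WT group had 2 libraries, and whether it carried the floxed allele or Cre is not given in the sources used here. METTL3 is the catalytic subunit of the nuclear enzyme that places N6-methyladenosine (m6A) on messenger RNA. Whether the 2 libraries of a genotype came from separate animals is not stated, so the p-values below measure only the spread between libraries, and that spread may be technical.

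GIMAP proteins share a GTP-binding AIG1 domain and sit on intracellular membranes such as the endoplasmic reticulum, mitochondria, Golgi and lysosomes. They are known for their part in lymphocyte survival: rats and mice that lack functional GIMAP5 lose peripheral T cells, and mice that lack GIMAP1 in lymphocytes lose mature T and B cells. Other members have been tied to apoptosis and to autophagy, and some bind to each other or to members of the BCL2 family.

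The GTP-binding site of each member is shown first, because it defines the family and because it shows how alike the members are in sequence, which bears on how their reads are counted. Each stretch of 42 bases is coding sequence of the main transcript, on mm10, and the 24 bases in capitals encode the Walker A motif, the loop that holds the phosphates of GTP. Gimap8 held 3 such stretches, and every other member held 1. Every stretch lies in 1 exon.
Gimap1 (chr6:48742543-48742584, plus strand): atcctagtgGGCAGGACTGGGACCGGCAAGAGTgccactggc
Gimap3 (chr6:48765878-48765919, minus strand): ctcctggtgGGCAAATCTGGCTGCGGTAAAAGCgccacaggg
Gimap4 (chr6:48690412-48690453, plus strand): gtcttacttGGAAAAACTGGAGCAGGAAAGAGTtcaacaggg
Gimap5 (chr6:48752585-48752626, plus strand): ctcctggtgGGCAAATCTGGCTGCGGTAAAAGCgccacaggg
Gimap6 (chr6:48702741-48702782, minus strand): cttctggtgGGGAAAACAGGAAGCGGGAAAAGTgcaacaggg
Gimap7 (chr6:48723515-48723556, plus strand): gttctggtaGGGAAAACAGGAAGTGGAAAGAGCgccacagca
Gimap8, the first (chr6:48650247-48650288, plus strand): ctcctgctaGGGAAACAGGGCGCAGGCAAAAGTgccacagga
Gimap8, the second (chr6:48656110-48656151, plus strand): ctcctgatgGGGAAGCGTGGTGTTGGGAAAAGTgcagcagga
Gimap8, the third (chr6:48658737-48658778, plus strand): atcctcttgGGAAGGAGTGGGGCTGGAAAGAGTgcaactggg
Gimap9 (chr6:48677514-48677555, plus strand): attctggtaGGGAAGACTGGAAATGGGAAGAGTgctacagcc
Gimap3 and Gimap5 were identical over all 42 bases, and Gimap7 and Gimap9 matched at 34 of 42 bases, or 81%. The other pairs, the 3 stretches of Gimap8 included, matched at 24 to 33 of 42 bases.

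The identity of Gimap3 and Gimap5 reaches beyond this site. Their coding sequences share an unbroken run of 140 bases, at chr6:48765681-48765820 on the minus strand in Gimap3 and chr6:48752684-48752823 on the plus strand in Gimap5. The run is shown because reads that fall wholly inside it cannot be assigned to one gene by sequence.
Gimap3 and Gimap5: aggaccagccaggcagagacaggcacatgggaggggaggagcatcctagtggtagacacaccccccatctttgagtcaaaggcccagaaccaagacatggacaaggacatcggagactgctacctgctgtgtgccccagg
The next longest run shared by the coding sequences of any pair of members was 17 bases. Of all 50-base words in the annotated transcripts, 8.15% of those in Gimap3 and 6.84% of those in Gimap5 also occurred in another gene. For Gimap1 that share was 35.5%, mostly in the antisense gene Gimap1os, and for the other 5 members it was between 0% and 1.39%.

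The 4 libraries held 25402792 and 24374587 gene counts in the Mettl3 knockout and 28316016 and 25931610 in WT. Levels are given as CPM, counts per 1000000 counts of the library, after scaling by the trimmed mean of M-values (TMM), and fold changes, standard errors (SE), 95% intervals and adjusted p-values come from the quasi-likelihood test of edgeR over all 14185 tested genes with Benjamini-Hochberg adjustment, with a gene called when the adjusted p was under 0.05. Mettl3 itself measured 78.1 and 91.4 CPM in the knockout and 92.2 and 123.6 CPM in WT, and it was not called (edgeR adjusted p = 0.357, log2 fold change -0.35, SE 0.19). These counts cover the whole gene and were not split by exon, so this level does not check the labels. Of 7 markers of iNKT identity, edgeR and limma voom called 0, beside 2.59% and 1.99% of all tested genes. An unadjusted p under 0.05 was found for 2, beside 20.2%, and DESeq2 called 1 higher and 1 lower, beside 9.4%. EdgeR called 1 higher without WT replicate 1 and also when genes needed 5 CPM in 2 libraries. Zbtb16, which encodes the iNKT transcription factor PLZF, was at 352.7 and 350.4 CPM in the knockout and at 255.5 and 192.3 CPM in WT. Traj18 and Trav11, the segments of the invariant receptor chain, were at most 2.29 CPM in the knockout and 3.49 CPM in WT. In these bulk libraries fewer cells of a type and less RNA per cell cannot be told apart.

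Transcripts of the family were abundant in both genotypes and no member passed the test. Of the 8 members, 0 were called higher and 0 lower in the Mettl3 knockout, beside 2.59% of all tested genes called in either direction, 1.09% higher and 1.51% lower. At an unadjusted p under 0.05 the count was 3 of 8, beside 20.2% of all tested genes. Fold changes were positive for 4 members and negative for 4, with a median log2 fold change of -0.0069, against 0.0163 over all tested genes. The 2 knockout libraries lay apart from both WT libraries for 4 members, with Gimap1 and Gimap7 higher and Gimap3 and Gimap4 lower, beside 50.3% of all tested genes, 25.4% higher and 24.9% lower. DESeq2, used as an alternative test, called 2 of the 8, Gimap1 as higher and Gimap3 as lower, beside 9.4% of all tested genes, and limma voom called 0, beside 1.99%.

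**Figure D1:**
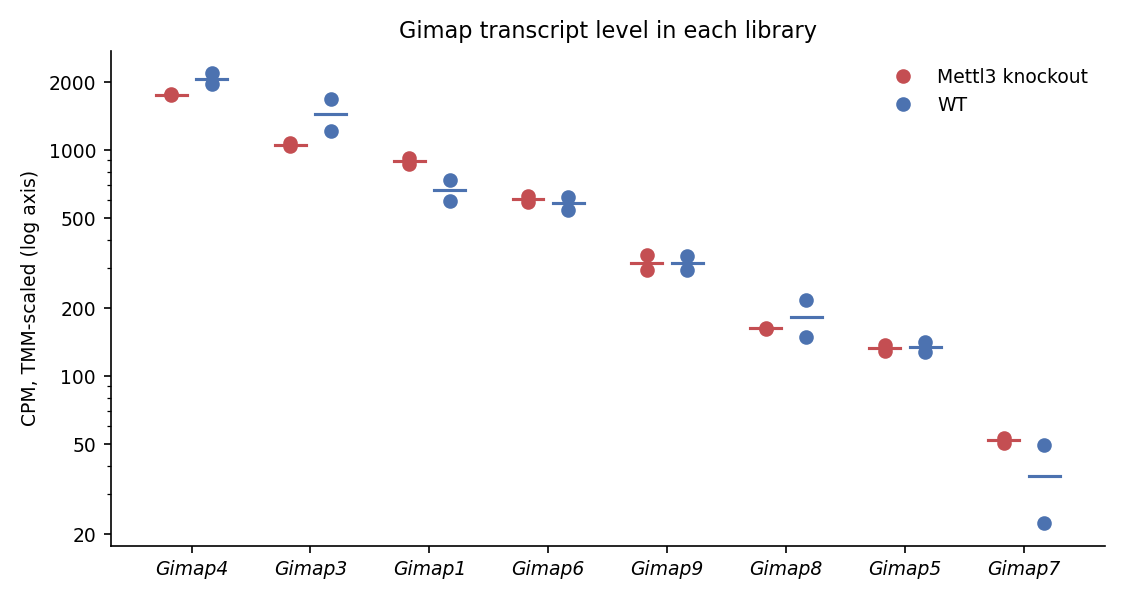
Level of each Gimap gene in each library, in TMM-scaled CPM on a log axis, with Mettl3 knockout libraries in red to the left of WT libraries in blue; points are libraries and short lines the means of 2. Gimap4, at 1747 to 2187 CPM, was the most counted member and Gimap7, at 22.3 to 53.2 CPM, the least counted, and the knockout points lie apart from the WT points for Gimap1, Gimap3, Gimap4 and Gimap7.

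Gimap1 (ENSMUSG00000090019.5; chr6:48739054-48743795, plus strand, protein coding) is required in mice for the survival of mature T and B cells. It measured 868.5 and 917.9 CPM in the knockout, against 595.5 and 737.2 CPM in WT. Both knockout libraries were above both WT libraries, and the WT libraries were further from each other than the knockout libraries were. Means were 893.2 ± 35.0 CPM in the knockout and 666.4 ± 100.2 CPM in WT (SD, n = 2 each). This 1.34-fold difference, 0.42 on the log2 scale (interval 0.15 to 0.69, SE 0.12), was not called (edgeR adjusted p = 0.106). It passed with DESeq2 (0.43, adjusted p = 0.0121) and, in edgeR, without WT replicate 2 (0.59, adjusted p = 0.0391), where 1.04% of all tested genes were called.

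Gimap5 (ENSMUSG00000043505.8; chr6:48746197-48754210, plus strand, protein coding) encodes the lysosomal member whose loss removes peripheral T cells in rats and mice. Its level was 136.8 and 129.1 CPM in the knockout, against 127.3 and 141.5 CPM in WT. The groups overlapped, and the 2 WT libraries enclosed both knockout libraries. On the log2 scale the difference was -0.01 (interval -0.33 to 0.30, SE 0.13; edgeR adjusted p = 0.971), so the interval on the linear scale ran from 0.798-fold to 1.23-fold.

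Gimap3 (ENSMUSG00000039264.9; chr6:48764464-48770851, minus strand, protein coding) is the close relative of Gimap5 and encodes a protein of intracellular membranes. In the knockout it was at 1041 and 1072 CPM, against 1211 and 1689 CPM in WT. Both knockout libraries lay below both WT libraries, and WT replicate 2 stood well above the other 3 libraries. The difference, -0.46 on the log2 scale (interval -0.80 to -0.12, SE 0.15), was not called (edgeR adjusted p = 0.142), from means of 1056 ± 21.9 CPM in the knockout and 1450 ± 338.0 CPM in WT (SD, n = 2 each). DESeq2 called it (-0.45, adjusted p = 0.0328), and so did edgeR without WT replicate 1 (-0.69, adjusted p = 0.00719), where 2.35% of all tested genes were called. Without WT replicate 2 the log2 fold change was -0.20. Summing the counts of Gimap3 and Gimap5, whose reads can be shared, gave -0.42 (edgeR adjusted p = 0.159). Most of that sum is Gimap3, so it cannot show how shared reads were assigned. Per read, Gimap3 was counted 7.61 and 8.30 times as often as Gimap5 in the knockout libraries and 9.52 and 11.9 times as often in the WT libraries.

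Gimap4 (ENSMUSG00000054435.16; chr6:48684549-48692060, plus strand, protein coding) has been linked to faster death of T cells after an apoptotic stimulus. It was the most counted member, at 1771 and 1747 CPM in the knockout, against 1959 and 2187 CPM in WT. Both knockout libraries were below both WT libraries, and the knockout libraries were close to each other. Its mean was 1759 ± 17.3 CPM in the knockout and 2073 ± 161.4 CPM in WT (SD, n = 2 each), which is -0.24 on the log2 scale (interval -0.42 to -0.05, SE 0.08; edgeR adjusted p = 0.155). It passed without WT replicate 1 (-0.32, adjusted p = 0.0478) and, among the alternatives, in no other.

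Gimap6 (ENSMUSG00000047867.11; chr6:48701582-48708225, minus strand, protein coding) encodes the member that binds GABARAPL2, a protein of the autophagosome membrane. Levels were 589.2 and 625.3 CPM in the knockout, against 542.9 and 620.0 CPM in WT. The groups overlapped, and WT replicate 1 was the lowest library. The difference of 0.06 on the log2 scale (interval -0.17 to 0.30, SE 0.10) was not called (edgeR adjusted p = 0.792).

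Gimap7 (ENSMUSG00000043931.10; chr6:48718621-48724636, plus strand, protein coding) encodes a GTPase whose human counterpart stimulates GTP hydrolysis through dimers. It was at 50.8 and 53.2 CPM in the knockout, against 22.3 and 49.6 CPM in WT. The knockout libraries were above both WT libraries, but WT replicate 2 lay close to them and WT replicate 1 stood apart as the low one. Its log2 fold change of 0.55 (interval -0.24 to 1.34, SE 0.34; edgeR adjusted p = 0.419) became 0.06 with WT replicate 1 left out and 1.22 with WT replicate 2 left out (adjusted p = 0.920 and 0.0968), so its size rests on a single WT library.

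Gimap8 (ENSMUSG00000064262.7; chr6:48647234-48660875, plus strand, protein coding) encodes the largest member, with the 3 GTP-binding sites shown above. It was at 163.5 and 162.3 CPM in the knockout, against 148.5 and 217.0 CPM in WT. The knockout libraries lay between the WT libraries. The log2 difference of -0.16 (interval -0.60 to 0.27, SE 0.18) was not called (edgeR adjusted p = 0.691), and without WT replicate 2 its sign turned, to 0.13.

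Gimap9 (ENSMUSG00000051124.6; chr6:48676129-48679114, plus strand, protein coding) is the member most like Gimap7 at the GTP-binding site. It had 293.5 and 342.3 CPM in the knockout, against 296.0 and 339.7 CPM in WT. Each knockout library was close to a WT library, and the difference of the means was small beside the spread within either genotype. The interval of its log2 fold change was -0.29 to 0.29 around 0.0007 (edgeR adjusted p = 0.999), that is from 0.816-fold to 1.23-fold.

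**Figure D2:**
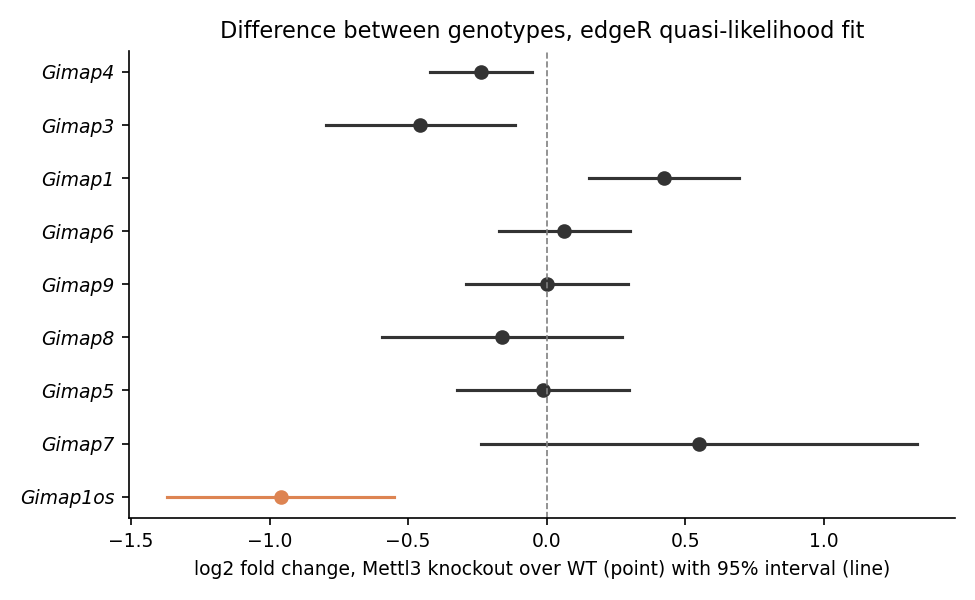
Log2 fold change of the 8 Gimap genes and of the antisense gene Gimap1os (orange), Mettl3 knockout over WT, with 95% intervals from the edgeR fit. The intervals of Gimap1, Gimap3, Gimap4 and Gimap1os leave out 0 before adjustment over all genes, and Gimap1os was the one that passed with adjustment, at -0.96.

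**Figure D3:**
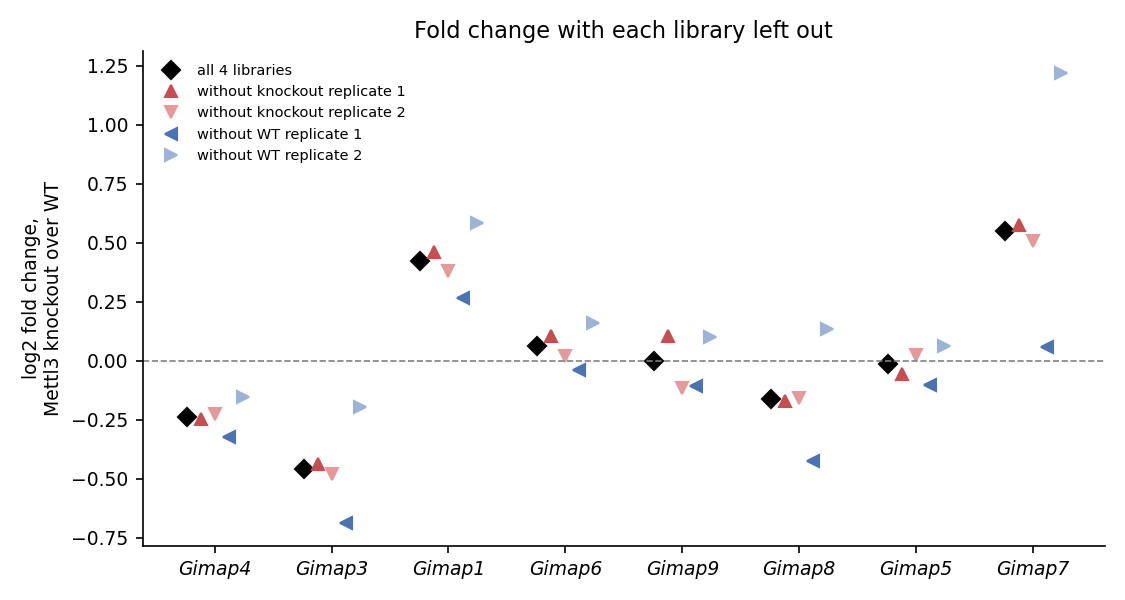
Log2 fold change of each Gimap gene, Mettl3 knockout over WT, with all 4 libraries (black diamonds) and with each library left out in turn (triangles). With a WT library left out, Gimap7 ran from 0.06 to 1.22 and Gimap3 from -0.69 to -0.20, and over all the fits Gimap5, Gimap6, Gimap8 and Gimap9 crossed 0.

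The libraries of a genotype also differed from each other. In the knockout 5 of 8 members were higher in replicate 2 than in replicate 1, with ratios of 0.944 to 1.17, beside 49.5% of all tested genes. In WT all 8 members were higher in replicate 2, by 1.11 to 2.22 times, beside 49.9% of all tested genes. Summed over the family, the level was 4915 and 5049 CPM in the knockout, against 4902 and 5981 CPM in WT. The knockout libraries and WT replicate 1 lay close together, and WT replicate 2 was the high one. The ratio of the means, 4982 ± 95.05 CPM in the knockout and 5442 ± 762.7 CPM in WT (SD, n = 2 each), was 0.915, or -0.13 on the log2 scale, and without WT replicate 2 the log2 value was 0.02. Without Gimap3, the sum was 3925 ± 73.2 CPM in the knockout and 3991 ± 424.8 CPM in WT, a ratio of 0.983. The family took 0.498% and 0.516% of all gene counts in the knockout and 0.487% and 0.579% in WT.

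To compare levels between genes, CPM was divided by the length of all annotated exon bases of a gene, in kilobases. On that scale Gimap4 ranked 14th of 14176 tested genes with a known length, averaged over the 4 libraries, Gimap3 ranked 39th, Gimap1 139th, Gimap9 191st and Gimap6 229th. These 5 members were thus among the top 1.62% of tested genes, while Gimap8, Gimap5 and Gimap7 were among the top 8.87%, 13.6% and 21.4%. The order of the means was the same in both genotypes: Gimap4, Gimap3, Gimap1, Gimap9, Gimap6, Gimap8, Gimap5 and Gimap7. Gimap4 averaged 957.7 ± 9.40 CPM per kilobase in the knockout and 1128 ± 87.9 in WT (SD, n = 2 each), and Gimap7 averaged 22.4 ± 0.756 CPM per kilobase in the knockout and 15.5 ± 8.29 in WT. Neighbours in this order overlapped in their libraries for Gimap9 and Gimap6 in the knockout and for Gimap1 and Gimap9 in WT, and those pairs did not differ beyond their spread.

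The order in the middle depended on the length used. With the length of the main transcript in place of all exon bases, an alternative added after the data were seen, Gimap1 had rank 2 and Gimap3 rank 3 in the knockout, at 598.3 ± 23.4 and 492.5 ± 10.2 CPM per kilobase (SD, n = 2 each). In WT Gimap3 had rank 2 and Gimap1 rank 3 on that scale, at 676.1 ± 157.6 and 446.3 ± 67.1 CPM per kilobase. Gimap6 then also stood above Gimap9, and Gimap5 above Gimap8, in both genotypes, with Gimap5 and Gimap8 overlapping in WT. Gimap4 was the highest and Gimap7 the lowest with either length.

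The share of each member among the family's reads is given as a description, with no test. Gimap1 made up 17.7% and 18.2% of the Gimap reads in the knockout, against 12.1% and 12.3% in WT. Gimap3 made up 21.2% in each knockout library, against 24.7% and 28.2% in WT. For both genes the knockout shares lay outside the WT shares and were close to each other. The shares of Gimap4, Gimap6 and Gimap7 also lay apart between the genotypes, and those of Gimap5, Gimap8 and Gimap9 overlapped. Gimap7 was at 1.03% and 1.05% in the knockout and at 0.456% and 0.829% in WT. In CPM, 50.3% of all tested genes lay apart between the genotypes. Gimap4, the largest share, was at 36.0% and 34.6% in the knockout and at 39.95% and 36.6% in WT, while Gimap6 was at 12.0% and 12.4% in the knockout and at 11.1% and 10.4% in WT. These shares are free of library scaling but not of each other, since they add up to the whole family.

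**Figure D4:**
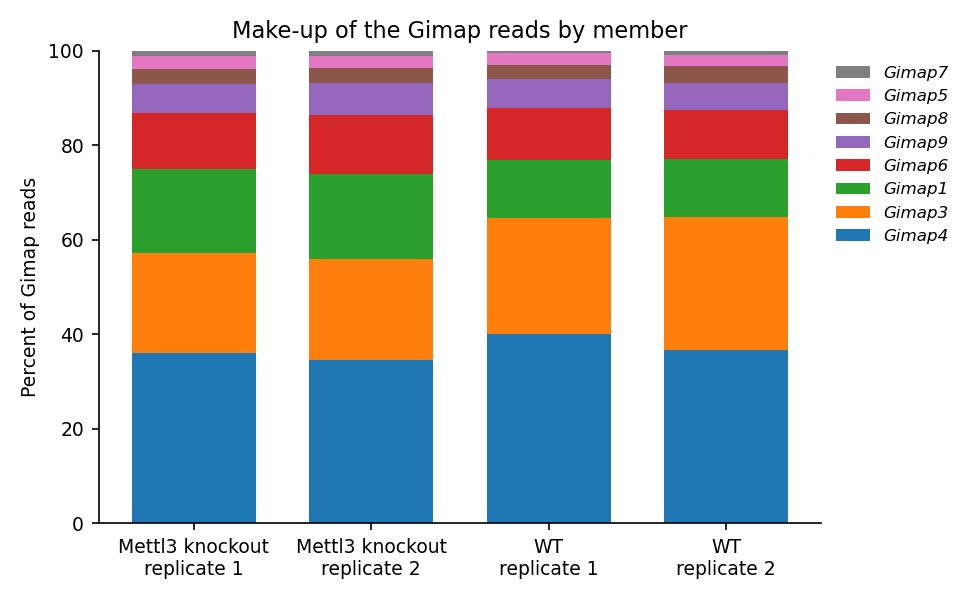
Percent of all Gimap reads that each member took in each library, stacked to 100, with the 2 Mettl3 knockout libraries to the left of the 2 WT libraries. The Gimap1 segment is 17.7% and 18.2% in the knockout against 12.1% and 12.3% in WT, and the Gimap3 segment is 21.2% in each knockout library against 24.7% and 28.2% in WT.

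The count ratio of Gimap1 to Gimap3 was chosen after the values were seen and is given as a description. It was 0.834 and 0.856 in the knockout, against 0.492 and 0.436 in WT, with means of 0.845 ± 0.0156 in the knockout and 0.464 ± 0.0391 in WT (SD, n = 2 each). The ratio of these means was 1.82, and in each genotype the 2 libraries were close to each other, although WT replicate 2 stood above WT replicate 1 in the level of both genes. An exact permutation test over 2 libraries against 2 cannot give a two-sided p below 0.333, so the ratio was not tested.

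The 8 members lie within 123.6 kilobases, chr6:48647234-48770851 on mm10, with 6 on the plus strand and 2, Gimap6 and Gimap3, on the minus strand. Gimap1 is overlapped on the opposite strand by Gimap1os (ENSMUSG00000044867.5; chr6:48738346-48741444, minus strand, processed transcript), a single-exon antisense gene with no role given here. Gimap1os was at 57.7 and 48.0 CPM in the knockout, against 95.2 and 110.8 CPM in WT. Both knockout libraries lay below both WT libraries, and the call was lower in the knockout, at 0.514-fold, or -0.96 on the log2 scale (interval -1.37 to -0.55, SE 0.18; edgeR adjusted p = 0.0406). The call was lost when any 1 library was left out. The adjusted p then was 0.111 and 0.198 without knockout replicates 1 and 2 and 0.0540 and 0.129 without WT replicates 1 and 2. It was 0.0551 with no filter on low counts, while the log2 fold change stayed between -1.10 and -0.84.

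Gimap1 and Gimap1os share 1107 exon bases, which is 36% of the exon bases of Gimap1 and 35.7% of those of Gimap1os. The libraries do not mark strand, so reads from these bases cannot be told apart, and the values of both genes are uncertain for that reason. The count ratio of Gimap1 to Gimap1os was 15.1 and 19.1 in the knockout, against 6.25 and 6.65 in WT. Adding the counts of Gimap1, Gimap1os and the read-through gene Gm28053, an alternative added after the data were seen, gave 0.29 on the log2 scale (edgeR adjusted p = 0.205), against 0.42 for Gimap1 alone.

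Gm28053 (chr6:48718607-48752644, plus strand) is annotated as a protein-coding gene that runs across exons of Gimap7, Gimap1 and Gimap5, sharing 81, 198 and 153 exon bases with them. It was near 1 CPM or below in all libraries, with 0.855 and 0.762 CPM in the knockout and 0.427 and 0.916 CPM in WT. Between Gimap5 and Gimap3 lie the overlapping long noncoding genes Gm44226 and 4833403J16Rik. Gm44226 was at 2.84 and 4.41 CPM in the knockout, against 4.73 and 5.77 CPM in WT, and 4833403J16Rik at 1.32 and 2.17 CPM in the knockout, against 1.64 and 1.51 CPM in WT. The pseudogene Gm44262 had 0 counts in every library. Of 22 protein-coding genes that start within 500 kilobases of the cluster, 14 were tested. Among these 0 were called higher and 0 lower by edgeR, DESeq2 or limma voom. An unadjusted p under 0.05 was found for 1, beside 20.2% of all tested genes, and the median log2 fold change was 0.03. Tmem176a and Tmem176b, neighbouring membrane protein genes used as NKT17 markers, were at 14.9 and 13.5 CPM and at 6.57 and 8.75 CPM in the knockout, against 20.2 and 19.7 CPM and 8.15 and 6.05 CPM in WT.

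**Figure D5:**
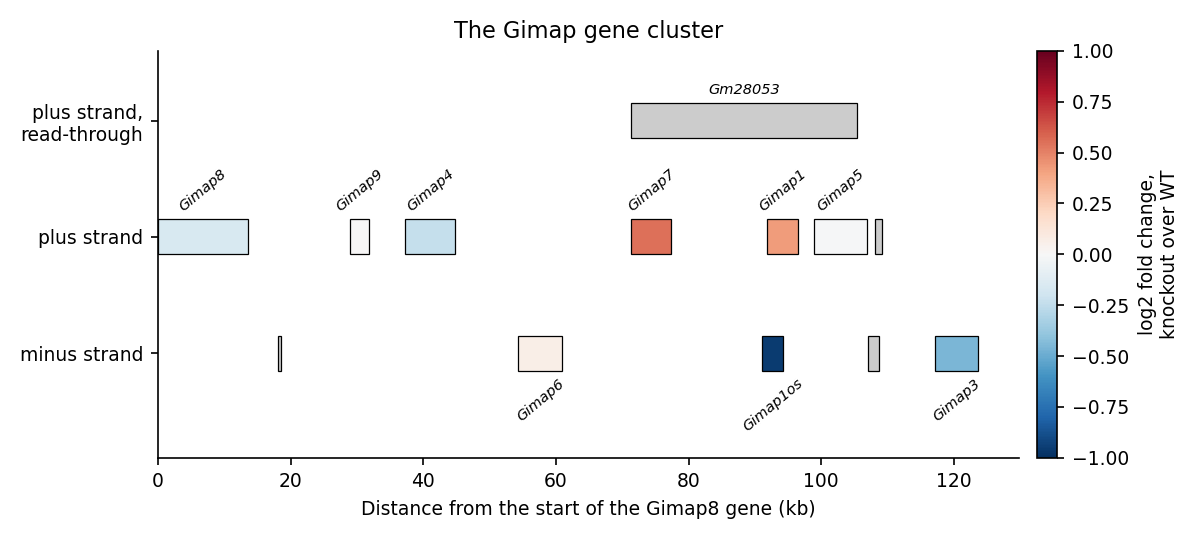
Map of the Gimap cluster to scale, in kilobases from the start of Gimap8, with plus-strand genes in the middle row, minus-strand genes at the bottom and the read-through gene Gm28053 at the top. Colour gives the log2 fold change, Mettl3 knockout over WT, of the 8 members and Gimap1os, red for higher and blue for lower, and grey marks other genes; Gimap1, at 0.42, lies beside Gimap1os, at -0.96.

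The promoter windows of Gimap1, Gimap3 and Gimap4 are shown because these are the 3 members with an unadjusted p under 0.05, and they lie in a cluster whose members differed in direction. Each window is RefSeq sequence of GRCm38.p6, 250 bases before to 50 bases after the annotated start, and all 8 members had an entry. Capitals mark matches, on either strand, to the ETS core GGAAG and to the RUNX motif TGTGGT, the letters bound by 2 families of transcription factors active in T cells.
Gimap1 (chr6:48738797-48739096, plus strand): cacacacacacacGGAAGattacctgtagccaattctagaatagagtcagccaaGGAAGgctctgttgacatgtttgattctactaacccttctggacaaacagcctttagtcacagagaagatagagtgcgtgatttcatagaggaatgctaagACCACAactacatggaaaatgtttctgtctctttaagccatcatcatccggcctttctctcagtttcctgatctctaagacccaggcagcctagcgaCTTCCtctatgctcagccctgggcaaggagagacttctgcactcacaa
Gimap3 (chr6:48770802-48771101, minus strand): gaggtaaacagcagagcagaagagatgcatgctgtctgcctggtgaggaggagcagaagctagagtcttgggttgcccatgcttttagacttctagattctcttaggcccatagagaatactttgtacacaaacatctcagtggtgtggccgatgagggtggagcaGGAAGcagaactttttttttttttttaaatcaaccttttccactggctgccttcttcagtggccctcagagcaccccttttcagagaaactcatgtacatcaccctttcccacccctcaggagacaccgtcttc
Gimap4 (chr6:48684328-48684627, plus strand): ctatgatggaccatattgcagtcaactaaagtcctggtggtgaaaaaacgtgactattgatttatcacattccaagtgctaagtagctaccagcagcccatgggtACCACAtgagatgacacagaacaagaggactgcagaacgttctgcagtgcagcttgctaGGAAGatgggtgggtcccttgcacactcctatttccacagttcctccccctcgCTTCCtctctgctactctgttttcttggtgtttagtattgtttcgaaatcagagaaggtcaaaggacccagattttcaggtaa
The letters GGAAG occurred in the windows of 8 of 8 members and in 71.4% of 32851 promoter windows of the genome. TGTGGT occurred in those of Gimap1, Gimap4 and Gimap7, 3 of 8, and in 16.8% of all windows. Of 2 further motifs searched on both strands and not marked above, CACCC, the core bound by KLF factors, occurred in 5 of 8 members and 57.5% of all windows, and CANNTG, the E-box, in 6 of 8 members and 72.3%. No motif can contain another, though neighbouring matches may overlap in part, and a match says only that the letters are present. The window of Gimap1 lies wholly inside the exon of Gimap1os.

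METTL3 acts on adenosines within a short consensus of which GGACT, as written in DNA, is one form. The annotated main transcripts were searched for it on the sense strand. Gimap1 held 4, or 2.68 per kilobase, a density at the 95.8th percentile among 21901 coding genes. Gimap6 and Gimap3 held 3 each, at the 85.8th and 70.8th percentiles. Gimap5 and Gimap8 held 2 each, and Gimap4, Gimap7 and Gimap9 held 0. The coding genes were searched in their longest protein-coding transcript and the members in their main transcript, so these percentiles are approximate. Of all coding genes, 87.6% held at least 1, with a median of 1.01 per kilobase. Sites of Gimap1 and Gimap3, the members that DESeq2 called, are shown with 8 bases on each side, the motif in capitals, apart from 1 Gimap1 site that spans an intron.
Gimap1 5′ UTR (chr6:48739131-48739151, plus strand): cacttcagGGACTgtcagcaa
Gimap1 coding sequence (chr6:48742548-48742568, plus strand): agtgggcaGGACTgggaccgg
Gimap1 3′ UTR (chr6:48743503-48743523, plus strand): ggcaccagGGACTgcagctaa
Gimap3 5′ UTR (chr6:48767543-48767563, minus strand): agactcatGGACTgaacaact
Gimap3 5′ UTR (chr6:48767527-48767547, minus strand): caactactGGACTtcccattg
Gimap3 5′ UTR (chr6:48767498-48767518, minus strand): gcatagttGGACTggctggac
One of the Gimap1 sites lies inside the Walker A stretch shown above, and all 3 of Gimap3 lie in the 5′ UTR. Methylation was not measured in these libraries, and the part of these letters in the levels was not tested.

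Genes tied to GIMAP function were grouped by their roles. The lists stand beside all tested genes, of which edgeR called 2.59%, DESeq2 9.4% and limma voom 1.99%. An unadjusted p under 0.05 was found for 20.2% of all tested genes. EdgeR called 2.85% of all tested genes with total-count scaling, and 7.39% when genes needed 5 CPM in 2 libraries. BCL2 family genes, the regulators of mitochondrial apoptosis, had 0 of 10 called higher and 0 lower by edgeR, with 4 at an unadjusted p under 0.05, a median log2 fold change of 0.20, 2 called higher by DESeq2 and 0 by limma voom. With total-count scaling, or when genes needed 5 CPM in 2 libraries, edgeR called 1 higher. Bcl2, an inhibitor of apoptosis, was at 150.8 and 216.0 CPM in the knockout, against 139.5 and 214.6 CPM in WT, with the groups overlapping. Bcl2l1, which encodes the inhibitor BCL-XL, was at 199.7 and 195.1 CPM in the knockout, against 155.3 and 166.7 CPM in WT (0.29, SE 0.12, edgeR adjusted p = 0.217). Bax, which encodes the effector that permeabilises mitochondria, was at 190.3 and 219.3 CPM in the knockout, against 149.5 and 134.4 CPM in WT (0.53, SE 0.13, edgeR adjusted p = 0.0908). For Bcl2l1 and Bax both knockout libraries were above both WT libraries. These 3 genes do not span the list. Over its 10 genes log2 fold changes ran from -0.64 to 1.97, positive for 7 and negative for 3, with a smallest edgeR adjusted p of 0.0512.

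The interleukin-7 receptor, FOXO and KLF2 genes serve the survival and exit of mature T cells. Of the 12 in this list, 2 rose and 0 fell by edgeR, beside 1.09% higher and 1.51% lower of all tested genes. The median log2 fold change was 0.21. Limma voom gave the same counts, DESeq2 called 3 higher and 2 lower, and edgeR with a minimum of 5 CPM in 2 libraries called 2 higher and 2 lower. Ccr7, the chemokine receptor of naive T cells, was at 352.6 and 393.9 CPM in the knockout, against 149.3 and 141.0 CPM in WT, and rose by 1.36 on the log2 scale (edgeR adjusted p = 0.00342, SE 0.12). S1pr1, the receptor that directs thymic exit, was at 142.2 and 153.8 CPM in the knockout, against 83.2 and 82.6 CPM in WT, and rose by 0.84 on the log2 scale (edgeR adjusted p = 0.0286, SE 0.14). Ccr7 passed whichever library was left out, and S1pr1 passed in none of these fits, its adjusted p being 0.111 and 0.162 without knockout replicates 1 and 2 and 0.0634 and 0.0841 without WT replicates 1 and 2. Without WT replicate 1 the counts were 1 higher and 1 lower, and without any 1 of the other libraries 1 higher and 0 lower. Il7r, the receptor for the survival cytokine interleukin-7, was at 967.4 and 1034 CPM in the knockout, against 1268 and 1268 CPM in WT (-0.34, SE 0.08, edgeR adjusted p = 0.0692). Foxo1 (0.39, SE 0.20) and Klf2 (0.34, SE 0.15), transcription factors of naive T cells, had edgeR adjusted p = 0.331 and 0.258.

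Among 13 autophagy genes of the ATG8 conjugation route, 0 were called in either direction by edgeR or limma voom, 4 had an unadjusted p under 0.05, DESeq2 called 2 lower, and the median log2 fold change was -0.22. EdgeR called 2 of them lower without WT replicate 1 and 1 lower with a minimum of 5 CPM in 2 libraries. Gabarapl2, which encodes the partner of GIMAP6, was at 145.2 and 161.9 CPM in the knockout, against 203.8 and 194.7 CPM in WT (-0.38, SE 0.12, edgeR adjusted p = 0.1504), with both knockout libraries below both WT libraries. Of the 4 genes of the GSK3 and β-catenin list, through which GIMAP5 acts in mouse T cells, 0 were called by edgeR, DESeq2 or limma voom, 1 had an unadjusted p under 0.05, and the median was -0.27. Gsk3b, the kinase gene, was at 113.6 and 102.3 CPM in the knockout, against 142.9 and 120.2 CPM in WT. Ctnnb1, which encodes β-catenin, had -0.34 on the log2 scale (edgeR adjusted p = 0.181, SE 0.12), Myc, a growth regulator, had -0.25 (edgeR adjusted p = 0.320, SE 0.12), and Gsk3a was near 1 CPM in all libraries.

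The interferon-inducible GTPases, another immune GTPase family, served as a comparison. Of 15 tested, 0 rose and 1 fell, with 6 at an unadjusted p under 0.05 and a median log2 fold change of -0.22, while DESeq2 called 4 lower, limma voom 0 and edgeR with a minimum of 5 CPM in 2 libraries 3 lower. The member that fell was Gbp3, which encodes a guanylate-binding protein, at 27.4 and 24.8 CPM in the knockout, against 56.9 and 83.3 CPM in WT (-1.42, SE 0.25, edgeR adjusted p = 0.0366). Without WT replicate 1 its value was -1.68 (adjusted p = 0.0201) and 2 of the 15 were called lower. It was not called, and neither was any other, with knockout replicate 1 (0.115), knockout replicate 2 (0.144) or WT replicate 2 (0.0991) left out.

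The subset and maturation markers of the sorted cells differed between the genotypes, and their part in the Gimap values was not tested. Of all tested genes, edgeR called 1.09% higher and 1.51% lower, DESeq2 called 9.4% and limma voom 1.99% in either direction. For 20.2% of them the unadjusted p was under 0.05, and 7.39% were called by edgeR with a minimum of 5 CPM in 2 libraries. Of 9 NKT1 markers, genes of the interferon-γ-producing subset, 8 fell and 0 rose by edgeR, whose calls are given here unless another tool is named, with a summed level of 2472 to 2500 CPM in the knockout and 4334 to 5396 CPM in WT. NKT17 markers, of the interleukin-17-producing subset, had 6 of 10 lower and 0 higher, and sums of 113 to 125 CPM in the knockout and 413 to 497 CPM in WT. Stage 0 markers, of iNKT precursors just after selection, had 4 of 8 higher and 0 lower (3548 to 3623 CPM in the knockout, 1988 to 2173 CPM in WT), and of 6 tested single-positive and naive T cell markers 3 rose and 0 fell (2202 to 2213 CPM in the knockout, 1447 to 1603 CPM in WT). NKT2 markers, of the interleukin-4-producing subset, had 2 of 8 higher and 0 lower (2793 to 2973 CPM in the knockout, 2279 to 3153 CPM in WT), while DESeq2 called 3 higher and 1 lower. CD4+CD8+ thymocyte markers had 0 of 7 called by edgeR or limma voom and 4 at an unadjusted p under 0.05, while DESeq2 called 4 higher, and all 7 log2 fold changes were positive (660.4 to 713.7 CPM in the knockout, 362.6 to 497.1 CPM in WT). For these markers edgeR called 1 higher with total-count scaling or without WT replicate 2, and 2 higher with a minimum of 5 CPM in 2 libraries. With 1 library left out, 4 to 7 NKT1 markers were lower (5 without WT replicate 2, 4 without either knockout library), 4 to 5 NKT17 markers were lower, and 2 to 4 stage 0 markers were higher (2 without either knockout library). NKT2 markers then had 1 to 3 higher (1 without WT replicate 2 or either knockout library), and naive T cell markers had 2 higher in each of these fits. WT replicate 2, the library with the most Gimap transcript, also had the highest NKT1 sum and the lowest naive T cell, stage 0 and NKT2 sums. Its NKT17 and CD4+CD8+ thymocyte sums lay between those of the knockout and of WT replicate 1. Over the other libraries the NKT1, stage 0 and naive T cell sums did not follow the Gimap order, while the NKT2 sums ran in its reverse. With 4 libraries this is a description, and a link was not tested. WT replicate 1 had the lowest Gimap sum, 4902 CPM. Its NKT1 sum of 4334 CPM was above both knockout libraries, and its naive T cell sum of 1603 CPM was below both.

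Markers of other cells that a sort could hold were also summed. Their counts stand beside the same shares of all tested genes, 2.59% called by edgeR, 9.4% by DESeq2 and 1.99% by limma voom. The share with an unadjusted p under 0.05 was 20.2%. Of 7 tested myeloid markers edgeR called 3 higher and 1 lower, while DESeq2 and limma voom each called 1 higher and 1 lower. With 1 library left out, edgeR called 3 higher without knockout replicate 2 and 2 higher without any other library, and 0 lower in each of these fits. Their sum was 483.9 to 536.0 CPM in the knockout and 141.3 to 160.5 CPM in WT, most of it Lyz2 in the knockout. The markers called higher were Lyz2, Csf1r and Cd209a. Csf1r was at 29.6 and 15.6 CPM in the knockout, against 0.854 and 0 CPM in WT. Cd209a was at 30.9 and 37.0 CPM in the knockout, against 0 and 1.67 CPM in WT. Log2 fold changes were positive for 4 of the tested markers and negative for 3. The marker called lower was Fcer1g, at 8.67 and 9.75 CPM in the knockout, against 27.9 and 32.4 CPM in WT. Itgam was too low to be tested, at 0.272 and 0.160 CPM in the knockout and 0 in WT. Of 4 tested NK cell markers 0 were called higher and 1, Klra9, was lower. Klra9 made up nearly all of the 225.3 to 231.0 CPM in the knockout and 577.6 to 692.5 CPM in WT. The NK sum therefore follows 1 gene. Ncr1 was not called, at 1.01 and 0 CPM in the knockout and 0.782 and 2.43 CPM in WT. Neither was Klra8, at 4.66 and 4.85 CPM in the knockout and 4.59 and 3.07 CPM in WT. Eomes was not called, at 0.466 and 0.883 CPM in the knockout and 0 in WT. B cell markers had 0 of 5 called by edgeR, DESeq2 or limma voom, 2 at an unadjusted p under 0.05, with 133.9 to 140.7 CPM in the knockout and 136.4 to 174.7 CPM in WT, mostly Ighm, and Pax5 had 0 counts in every library. Endothelial cells also express Gimap genes, and of 4 tested markers of these cells edgeR and limma voom called 0, 3 had an unadjusted p under 0.05, and DESeq2 called 1 higher. The sum was 74.5 to 83.4 CPM in the knockout and 39.4 to 50.9 CPM in WT, nearly all Pecam1, with Tek and Emcn at 0 counts in every library. The part of these cells in the Gimap values was not tested.

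The genes whose pattern over the 4 libraries was most like the summed Gimap level were found among 7609 other coding genes with at least 10 CPM in every library, by the Euclidean distance between centred log2 CPM. The 5 nearest were Thoc2, Nup37, Csnk1d, Prkd2 and Tbl3, at distances of 0.0209, 0.0286, 0.0299, 0.0310 and 0.0312. Thoc2, a gene of the complex that couples transcription to RNA export, was at 176.4 and 182.6 CPM in the knockout, against 174.7 and 212.3 CPM in WT, with WT replicate 2 the high library as for the Gimap sum. With 4 libraries and many candidates such likeness is a description of these libraries.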

How the data were processed

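The members and the gene lists were chosen with earlier results of these data known. The authors deposited 1 table of raw counts, with whole numbers of reads for 53715 Ensembl gene IDs in each of 4 libraries and no pooling. Per the submitters' processing notes STAR 2.6.0a, HTSeq 0.6.1, DESeq2 1.18.1 and FastQC 0.11.5 were used, with genome build mm10. What each did, the read length, the annotation release and the strand setting are not stated there. Gene names and coordinates come from GENCODE M21 (GRCm38), which held 53620 of the IDs, and all 8 members also matched by ID version.

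In R 4.3.3, edgeR 4.0.16 filtered the genes (filterByExpr), scaled the libraries (TMM) and ran its quasi-likelihood F test (glmQLFTest after a robust glmQLFit with legacy=FALSE), two-sided, with genotype alone in the design and 2 residual degrees of freedom. The steps were tested on simulated data. SEs were taken from the F statistic. Alternatives were DESeq2 1.42.0, limma 3.58.1 voom, other scalings and filters, a gene-length correction, a replicate block, each library left out, and summed counts of overlapping genes. With a genotype's library left out, the lone library is assumed to vary like the others. Libraries of a genotype differed beyond counting noise (chi-square per degree of freedom 27.8 in the knockout, 45.0 in WT) and were used as separate replicates. Depth was 24374587 to 28316016 counts per library, and the reads carry no molecular identifiers, so counts are not numbers of molecules.

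Outside the cell-type markers, named genes were Mettl3, every member, every gene of the locus and every gene of the list of 4. Also named were list genes that passed the test (at most 4 of smallest p) and list genes with a known tie to a GIMAP protein. The 5 nearest patterns were named too. The cell-type markers were given as counts and sums of lists, and those named singly were picked and do not stand for their lists. Sequences are RefSeq promoters and GENCODE transcripts.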

Additional observations from a re-analysis of the deposited data

How the results depend on the processing

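The directions of Gimap1 and Gimap7 (positive) and of Gimap3, Gimap4 and Gimap1os (negative) were the same under every alternative run, but the calls were not. Of the 8 members, 0 were called with all alternatives except DESeq2, which called 2, and the fits that left out 1 library, which called 0 to 2. Over all genes the counts were 154 higher and 214 lower. They were 93 higher with no filter on low counts, 335 higher and 392 lower when genes needed 5 CPM in 2 libraries, and 662 and 671 with DESeq2. With 1 library left out they were 29 to 102 higher and 56 to 231 lower. Scaling by total counts gave 207 higher and 197 lower. The replicate numbers are not shown to pair the libraries (correlation of deviations -0.0299, 2 pairs), and a fit with the replicate number as a block gave 7 higher, 26 lower and 0 members called, with an adjusted p of 0.141 for Gimap1os and 0.0510 for Ccr7. Under the block 0 genes were called in the interleukin-7 receptor, stage 0, NKT2, interferon-inducible GTPase and naive T cell lists, while 4 NKT1 and 3 NKT17 markers were lower, 1 myeloid marker was higher and 0 lower, and 1 NK marker was lower. The log2 ratio of summed Gimap CPM, -0.13, ranged from -0.26 to 0.02 with 1 library left out.

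Members near 0 changed sign. Gimap5 was 0.039 with total-count scaling and ran from -0.10 to 0.063 with 1 library left out, positive without WT replicate 2 or knockout replicate 2. Gimap6 ran from -0.040 (without WT replicate 1) to 0.16, Gimap8 from -0.42 to 0.13 (without WT replicate 2) and Gimap9 from -0.11 (without WT replicate 1 or knockout replicate 2) to 0.11. Gimap9 was -0.0032 with no filter and -0.0006 with the block. The cause was not tested.

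A missing call does not show equal levels. The lowest count of any member was 628, for Gimap7 in WT replicate 1.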
